A study of Mus musculus with 8 samples.

Results

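Small nucleolar RNA (snoRNA) host genes are genes whose introns carry snoRNAs. The noncoding hosts Snhg1, Snhg3, Snhg4, Snhg5, Snhg6, Snhg8, Snhg12 and Gas5 were chosen by symbol, and the transcript records mapped to each symbol were read in 8 tables of FPKM (fragments per kilobase of transcript, relative to the depth of the library). Of these 8 symbols, 7 had a record tied to them by accession, 1 record each, among 23560 genes in all. All 7 were among the 11832 genes whose mean over the 8 libraries was at least 1 FPKM, called the tested genes here. No record was tied by accession to Gas5. The gene table of assembly GRCm38.p6 places Snord47 inside Gas5, and the record NR_002840 spans Snord47 in the files, but no accession joins that record to the symbol. It is therefore given by its record name and is not counted among the 7.

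The RNA came from mouse embryonic stem (ES) cells of the strain C57BL/6X129Sv mix, which are pluripotent cells grown here with serum and leukemia inhibitory factor. The 4 cultures were p53-/- cells given 0.5 uM Adriamycin for 8 h, untreated p53-/- cells, p53+/+ cells given the same dose for the same time, and untreated p53+/+ cells. Adriamycin, or doxorubicin, damages DNA by poisoning topoisomerase II. Each culture gave 1 RIP library, which is RNA precipitated with an antibody to the RNA-binding protein hnRNP L, and 1 input library, labelled as RNA with a poly A tail. A control antibody library was not analysed here, and how the p53-/- allele was made is not given in the sources used here. With 1 library in each of the 8 groups, treatment and genotype differences had no replicate check. RIP against input had 4 cultures a side, and nothing in the labels says that these cultures were independent experiments.

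The spliced RNA of such a host is commonly short-lived, because its ribosome-bound form is a substrate of nonsense-mediated decay, while the snoRNAs cut from its introns are stable. Box C/D snoRNAs guide methylation and box H/ACA snoRNAs guide pseudouridylation of ribosomal RNA. Many host genes start inside a tract of pyrimidines, the terminal oligopyrimidine type of start that ribosomal protein genes also use.

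Start-site sequences were available for 5 of the 7 genes, not for Snhg4 or Snhg6, and are shown as a description. They come from RefSeq, build GRCm38.p6, and run from 40 bases before the annotated start to 30 bases from it, 5′ to 3′ on the strand of the gene. Capitals mark TATA lying 20 to 40 bases before the start and a tract of a C followed by 4 or more pyrimidines that begins within 10 bases of the start. The windows are chr19:8723447-8723516 on the plus strand for Snhg1, chr4:132353657-132353726 on the minus strand for Snhg3, chr9:88522868-88522937 on the minus strand for Snhg5, chr3:123508307-123508376 on the minus strand for Snhg8 and chr4:132308638-132308707 on the plus strand for Snhg12.
Snhg1: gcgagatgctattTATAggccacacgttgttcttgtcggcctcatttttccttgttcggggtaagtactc
Snhg3: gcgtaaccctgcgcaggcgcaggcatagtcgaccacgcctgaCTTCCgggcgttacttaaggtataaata
Snhg5: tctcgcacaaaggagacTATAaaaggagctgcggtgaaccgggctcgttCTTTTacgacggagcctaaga
Snhg8: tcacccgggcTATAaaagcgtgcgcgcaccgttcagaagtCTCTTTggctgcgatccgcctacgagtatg
Snhg12: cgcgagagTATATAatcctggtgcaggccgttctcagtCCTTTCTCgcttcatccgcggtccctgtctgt

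The pyrimidine tract was found in 4 of the 5 start sites (Snhg3, Snhg5, Snhg8 and Snhg12), against 29.2% of all 32851 promoters of the table. It covered the annotated start in Snhg8 and Snhg12, and began after it in Snhg3 (base 3) and Snhg5 (base 10). TATA in its window was found in 4 of the 5 (Snhg1, Snhg5, Snhg8 and Snhg12), against 5.71% of promoters, and both features in 3 of the 5, against 1.75%. The search for TATA was added after the sequences were seen. Of 13 other noncoding hosts with a promoter entry (Snhg7, Snhg9, Snhg10, Snhg11, Snhg14, Snhg15, Snhg16, Snhg17, Snhg18, Snhg20, Dancr, Rian and Zfas1), 6 held the tract, 1 held TATA and 1 held both. Across the whole 300-base windows, on both strands, the E-box CACGTG (7.15% of promoters), the p53 half-site (8.36%) and the CA repeat CACACA (21.1%), of the kind hnRNP L binds, matched none of the 5. A match, or none, describes the letters of these windows and says nothing of a factor's binding.

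ES cell markers were present in every library. All 8 ES cell markers, among them Pou5f1, Sox2 and Nanog, stood at 1 scaled FPKM or more in each of the 8 libraries. Trp53, the gene behind the genotype labels, stood at 86.1 (Adriamycin) and 105 (untreated) scaled FPKM in p53-/- input, against 119.7 and 178 in p53+/+ input, and its values cover whole transcripts, so they cannot show a deletion of part of the gene. The summed level of 12 p53 target genes was 74.5 and 63.8 scaled FPKM in Adriamycin-treated and untreated p53-/- input, against 764 and 151 in p53+/+ input. Fibroblast markers differed between the genotypes. Of 18 listed, 17 were higher in p53-/- than in p53+/+ input at both treatments, and their sum was 827 (Adriamycin) and 735 (untreated) scaled FPKM in p53-/-, against 208 and 284 in p53+/+. Col3a1, Dcn and Lum were at 0 in both p53+/+ inputs, with Postn also at 0 after Adriamycin and Lox in the untreated one, and no marker was at 0 in either p53-/- input. Primitive endoderm markers summed to 24.3 and 22.4 scaled FPKM in p53-/- and to 47.5 and 56.0 in p53+/+ input. RIP libraries held 3.21 to 4.94 Gb on annotated records and input libraries 5.67 to 7.48 Gb. Annotated records took an estimated share of the mapped material, computed from FPKM times length, of 64.2% (Adriamycin) and 65.2% (untreated) in p53-/- RIP, 41.1% (Adriamycin) and 48.9% (untreated) in p53+/+ RIP, and 87.6% to 90.6% in the inputs.

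In input, the host genes were among the more abundant transcripts per length of these cells. Snhg1, the host of Snord22 and other box C/D snoRNAs, averaged 127 ± 29.8 scaled FPKM over the 4 inputs (SD, n = 4, across the 4 different conditions), which placed it at percentile 95.9 of the tested genes. Snhg3, the host of the U17 family of box H/ACA snoRNAs, averaged 103 ± 35.3, Snhg6, the host of Snord87, 86.8 ± 17.2 and Snhg5, the host of the U50 snoRNAs, 71.0 ± 27.3 (SD, n = 4 each). Snhg12, which holds Snord99, Snora16a, Snora44 and Snora61, averaged 58.5 ± 8.64, Snhg8, which holds Snora24, 27.9 ± 4.04, and Snhg4, which holds Snora74a, 18.0 ± 11.1 (SD, n = 4 each). Neighbours in this order differed by less than the larger of their SDs, except Snhg12 and Snhg8, which differed by more than either. Snhg4 stood lowest of the 7 in every input, at percentile 74.7 of the tested genes by its mean, and its ratio of SD to mean was the widest. Levels are FPKM after division by 1 scaling factor per library, and the records of the host RNAs are 407 (Snhg6) to 1151 bases (Snhg4) long. In build mm9 the records covered 2 near neighbours on chromosome 4, Snhg12 (131864593 to 131866939) and Snhg3 (131907848 to 131909601), while Snhg1 lay on chromosome 19 (8797977 to 8800816), Snhg4 on chromosome 18 (35713064 to 35717970), Snhg5 on chromosome 9 (88415891 to 88417735), Snhg6 on chromosome 1 (9932106 to 9934199) and Snhg8 on chromosome 3 (123210470 to 123211254). The Snhg8 record fills 100% of its span, so that reads of Snora24 inside it cannot be told apart from reads of the host, while the other 6 records cover 16.8% to 54.7% of theirs.

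**Figure D1:**
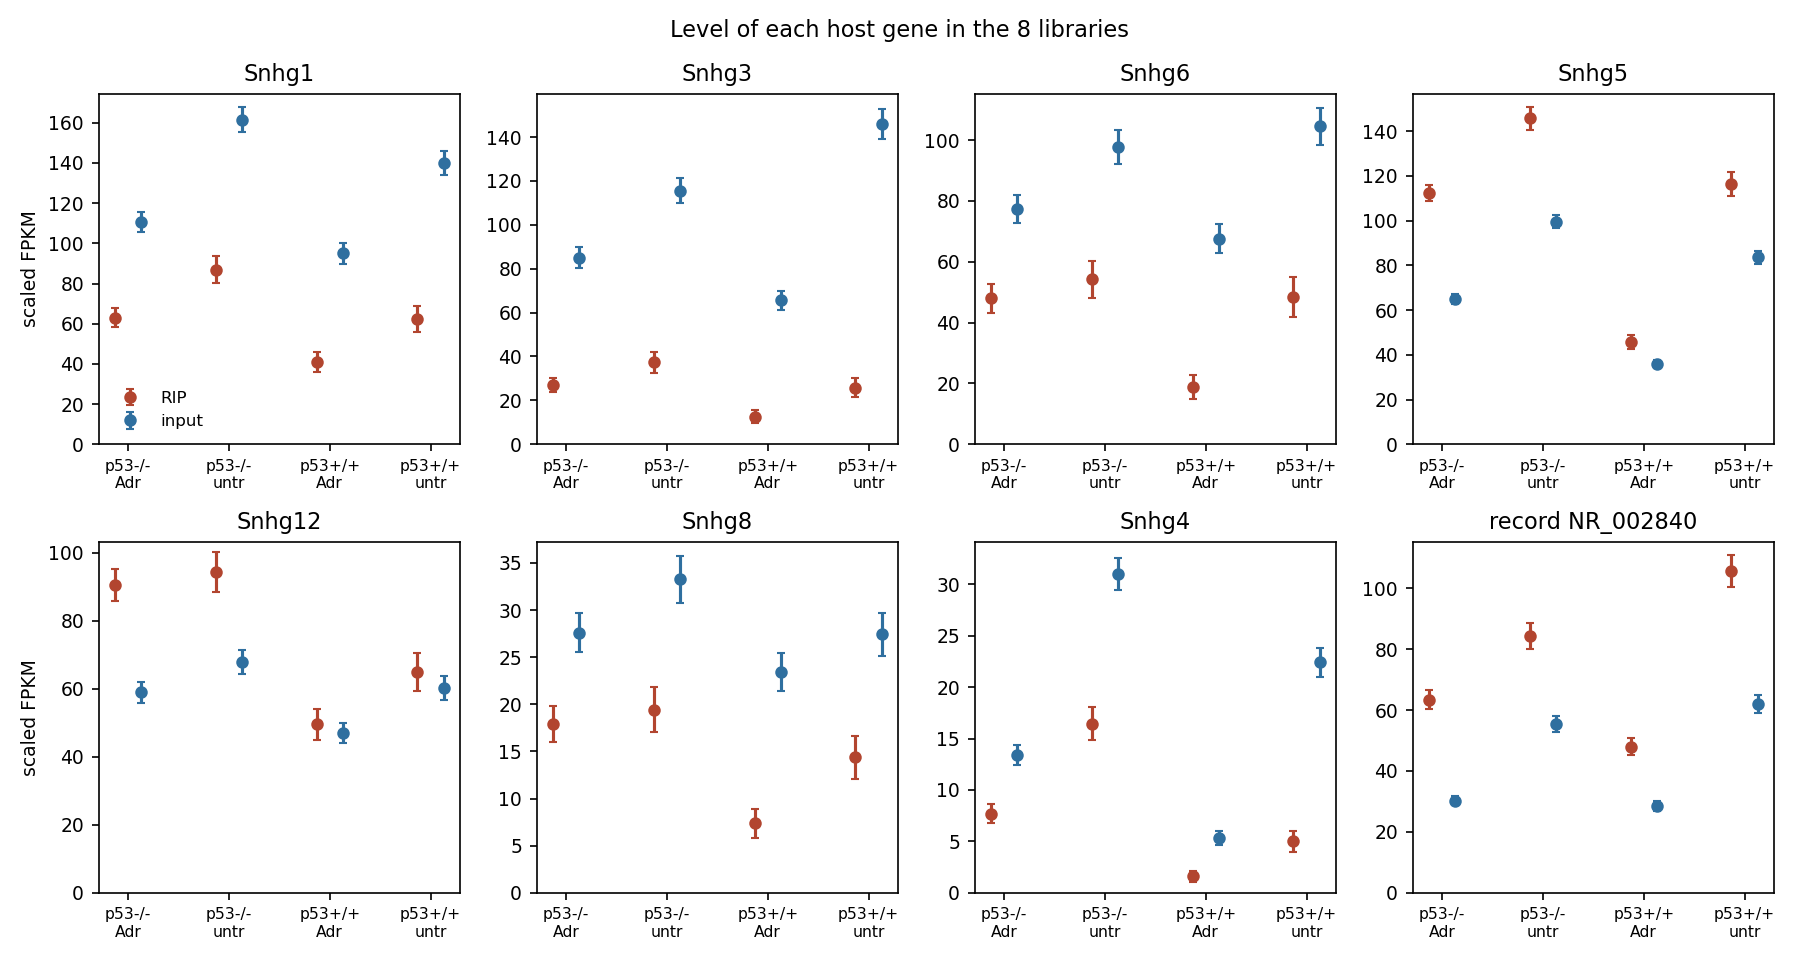
Level of each of the 7 host genes and of the record NR_002840 in the 8 libraries, in scaled FPKM (vertical axis, from 0, a scale of its own in each panel), by culture (horizontal axis). Points are single libraries, red for RIP and blue for input, and bars are the bounds that the authors' files give for each estimate. Within each genotype and assay the Adriamycin-treated library lies below the untreated one, and red lies above blue for Snhg5, Snhg12 and NR_002840.

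The first question was whether the host RNAs differed after Adriamycin, in cells with and without p53. All 7 were lower in treated than in untreated input, in p53-/- cells, where 50.2% of tested genes were below 0, as well as in p53+/+ cells, where 54.2% were. Their summed level was 438 scaled FPKM in treated against 607 in untreated p53-/- input, and 339.9 in treated against 584 in untreated p53+/+ input. Snhg4 had the largest difference of the 7 in both genotypes, followed by Snhg5. The ES cell markers were lower beside them. All 8 were below 0 in each of the 4 treatment comparisons, with medians of -0.49 in p53-/- input, -0.81 in p53+/+ input, -0.68 in p53-/- RIP and -0.77 in p53+/+ RIP. Their summed level was 4944 scaled FPKM in treated against 5647 in untreated p53-/- input, and 5478 in treated against 6764 in untreated p53+/+ input. Their part in the differences of the host genes was not tested. In bulk RNA, fewer cells of a type and less RNA per cell cannot be told apart.

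In p53-/- cells, Snhg4 stood at 13.4 scaled FPKM in treated input, with bounds of 12.4 to 14.3, against 31.0 in untreated input, with bounds of 29.4 to 32.5. This is a difference of -1.15 in log2(scaled FPKM + 1), the scale of all differences below, and the rank 15 from the lowest of 11832 tested genes. Snhg4 was the 1 member past 1 on the lower side, where 0.186% of all tested genes lay, and it was at -0.97 with a pseudocount of 5 FPKM. Snhg5 stood at 65.1 in treated and 99.6 in untreated p53-/- input (-0.61, rank 83), and Snhg1 at 110.5 and 162 (-0.54, rank 110). These 3 RNAs lay among the lowest 5% of tested genes, as did Snhg3, at 85.1 in treated and 116 in untreated p53-/- input (-0.44, rank 209), and Snhg6, at 77.3 and 97.8 (-0.34, rank 450). The differences of Snhg8, at 27.6 and 33.2 (-0.26), and Snhg12, at 58.9 and 67.9 (-0.20), were smaller. For all 7 the bounds of the treated and untreated p53-/- input did not overlap, and 17.0% of tested genes were lower in this sense. The median of the 7 was -0.44, beside -0.00 over all tested genes.

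In p53+/+ cells, Snhg4 stood at 5.36 scaled FPKM in treated input, with bounds of 4.68 to 6.04, against 22.4 in untreated input, with bounds of 21.0 to 23.8. The difference was -1.88, rank 29 from the lowest. Snhg5 followed with 35.9 in treated and 83.6 in untreated p53+/+ input (-1.20, rank 234), and Snhg3 with 65.6 and 146 (-1.14, rank 289). Snhg4, Snhg5 and Snhg3 were the 3 members past 1 on the lower side, where 3.96% of all tested genes lay. With quantile normalization Snhg4 alone passed 1, and Snhg3 was at -0.81. The other members stood closer to the untreated level. Snhg6 had 67.6 in treated and 104 in untreated p53+/+ input (-0.62), Snhg1 had 95.0 and 139.9 (-0.55), and Snhg12 had 47.0 and 60.2 (-0.35). Snhg8 had 23.4 in treated and 27.4 in untreated p53+/+ input (-0.22), and it was the only member whose bounds overlapped in this comparison. The bounds of the other 6 lay apart on the lower side, as did those of 38.4% of tested genes. The median of the 7 was -0.62, beside -0.05 over all tested genes. With quantile normalization it was -0.31, beside -0.10 over all tested genes, with Snhg6 at -0.31, Snhg1 at -0.21, Snhg12 at -0.12 and Snhg8 at -0.09.

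The treatment was measured again in the RIP libraries. In p53-/- RIP, Snhg4 stood at 7.67 scaled FPKM in treated and 16.5 in untreated cells (-1.01, rank 31), the only member past 1, where 0.27% of tested genes lay, and under 4 of the alternatives none passed 1. The bounds lay apart for Snhg1 (-0.46), Snhg3 (-0.46), Snhg4 and Snhg5 (-0.37), or 4 of the 7, as for 23.1% of tested genes, and overlapped for Snhg6 (-0.17), Snhg8 (-0.11) and Snhg12 (-0.06). In p53+/+ RIP, Snhg5 had 45.6 in treated and 116 in untreated cells (-1.33), Snhg6 had 18.9 and 48.4 (-1.31), and Snhg4 had 1.59 and 4.99 (-1.21). These were the 3 members past 1 there, beside 5.38% of tested genes, followed by Snhg3 (-0.99), Snhg8 (-0.87), Snhg1 (-0.59) and Snhg12 (-0.38), and all 7 had bounds that lay apart, beside 34.6%. With a pseudocount of 5 FPKM Snhg4 was at -0.60 there and no longer past 1. Snhg6 and Snhg8 had larger differences in p53+/+ RIP (-1.31 and -0.87) than in p53+/+ input (-0.62 and -0.22), while Snhg4 had a smaller one. Across the 4 treatment comparisons, which use separate libraries but only 4 cultures, all 7 members were below 0 in each, and 21.3% of tested genes were. The exception by processing was Snhg12 in p53-/- RIP, at 0.01 with FPKM as deposited, 0.02 with quantile normalization and 0.04 as a share of summed FPKM.

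**Figure D2:**
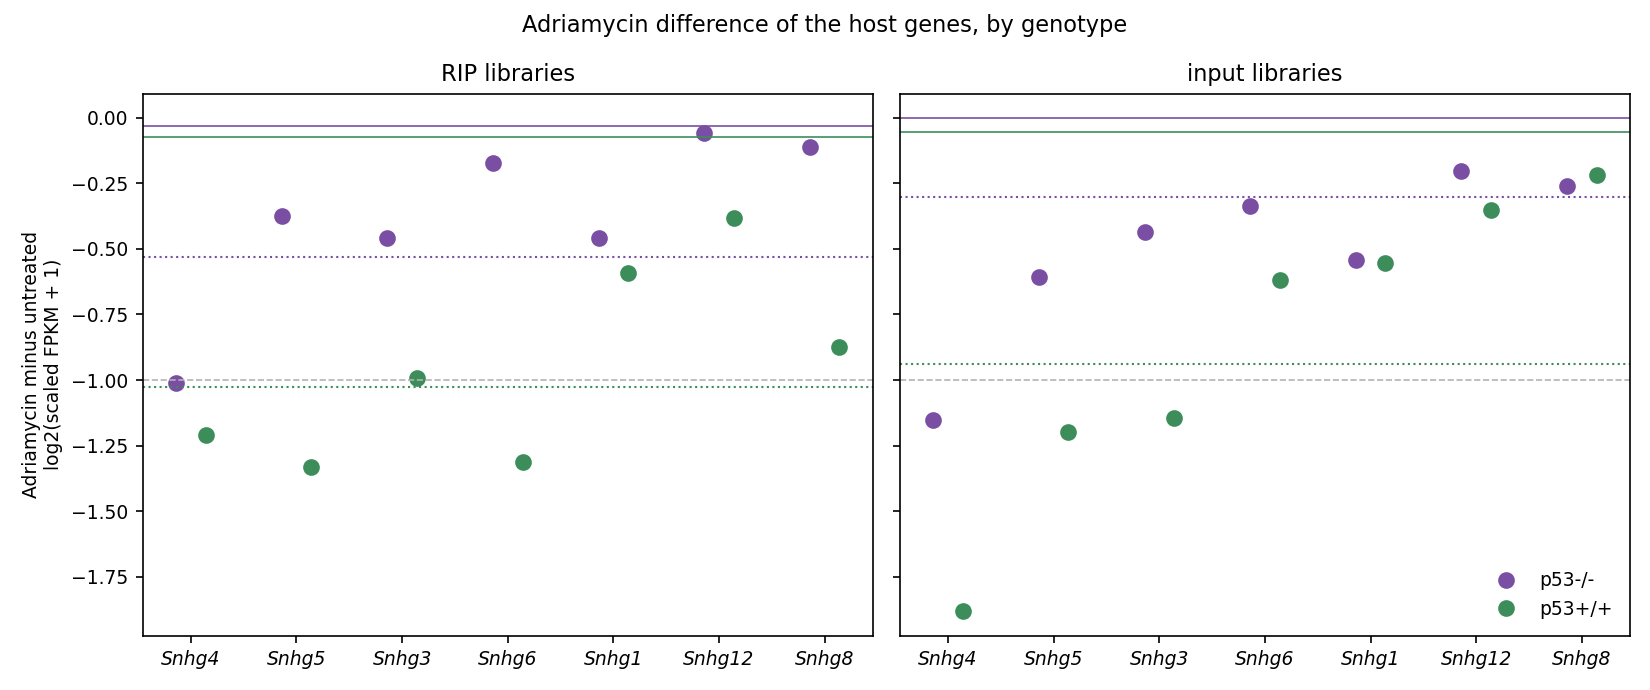
Difference between Adriamycin-treated and untreated libraries (vertical axis, log2(scaled FPKM + 1)) for the 7 host genes (horizontal axis), in RIP (left) and input libraries (right), with p53-/- in purple and p53+/+ in green. Each point is 1 treated minus 1 untreated library, solid lines are the medians over all 11832 tested genes, dotted lines the percentile 5 of those genes and the dashed grey line marks -1. All points lie below 0, and Snhg4 is lowest in both genotypes in input.

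The size of the treatment difference was next compared between the genotypes in input. The p53-/- difference minus the p53+/+ difference was 0.73 for Snhg4, 0.71 for Snhg3 and 0.59 for Snhg5, with a smaller treatment difference in p53-/- cells for these 3 RNAs. It was 0.29 for Snhg6, 0.15 for Snhg12, 0.01 for Snhg1 and -0.04 for Snhg8. None of the 7 reached 1 on the higher side, where 2.82% of tested genes lay, or on the lower side, where 8.04% lay. With 1 library in each corner the dependence on genotype was not tested, and the sign of the values for Snhg1, Snhg8 and Snhg12 changed with the scaling. The median of the 7 was 0.29, beside 0.05 over all tested genes, and with quantile normalization it was 0.06, beside 0.10. Under that setting Snhg3 was at 0.45, Snhg5 at 0.45 and Snhg6 at 0.06, and with a pseudocount of 5 FPKM Snhg4 was at 0.44.

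Between the genotypes themselves, the members differed little in untreated input. Snhg4 had 31.0 scaled FPKM in p53-/- and 22.4 in p53+/+ input (0.45), and Snhg3 had 116 and 146 (-0.33). The other 5 lay between -0.09 for Snhg6 and 0.27 for Snhg8. None reached 1 in either direction, where 3.22% of tested genes lay on the higher and 2.44% on the lower side. After Adriamycin all 7 were higher in p53-/- than in p53+/+ input, beside 52.9% of tested genes, with a median of 0.32 beside 0.05 over all tested genes, although with quantile normalization Snhg1 (-0.04) and Snhg6 (-0.05) lay below 0 and the median was 0.14, beside 0.07. Snhg4, at 13.4 in p53-/- and 5.36 in p53+/+ treated input (1.18, or 0.83 with a pseudocount of 5 FPKM), was the 1 member past 1, beside 7.77% of tested genes, and Snhg5 had 65.1 and 35.9 (0.84). These comparisons share their libraries with the treatment comparisons above. The fibroblast marker sums given above also differed between these genotypes, and their part in the differences was not tested.

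The record NR_002840, on chromosome 1 (162965297 to 162968668), moved like the 7 in the treatment comparisons. It stood at 30.3 scaled FPKM in treated and 55.3 in untreated p53-/- input (-0.85) and at 28.4 in treated and 62.0 in untreated p53+/+ input (-1.10). In RIP it had 63.4 in treated and 84.3 in untreated p53-/- cells (-0.41), and 47.9 and 106 in p53+/+ cells (-1.13). Its bounds lay apart in each of the 4 pairs. Unlike Snhg4, it hardly differed between the genotypes after Adriamycin, with a difference of 0.09.

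RIP was then compared with input to ask which host RNAs were recovered with the hnRNP L antibody above or below their input level. The 7 members split into 5 with a lower and 2 with a higher level in RIP. Snhg3 was the lowest, with 27.0, 37.5, 12.5 and 25.8 scaled FPKM in RIP against 85.1, 116, 65.6 and 146 in input, in the order p53-/- Adriamycin, p53-/- untreated, p53+/+ Adriamycin and p53+/+ untreated. RIP was below input in 4 of 4 cultures, and the mean difference was -1.99 ± 0.17 (SE, limma, adjusted p = 6.66e-05). Only 1.16% of tested genes lay as low. Snhg4 (-1.22 ± 0.20, limma adjusted p = 0.00144), Snhg6 (-1.10 ± 0.18, limma adjusted p = 0.00143), Snhg1 (-1.01 ± 0.10, limma adjusted p = 0.000137) and Snhg8 (-0.94 ± 0.16, limma adjusted p = 0.00160) were also lower in 4 of 4 cultures. Without the block of culture Snhg4 was not called (limma adjusted p = 0.162). Calls on the lower side were made for 37.8% of all tested genes, so a lower level in RIP is common in these data.

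Snhg5 was higher in RIP, with 112, 146, 45.6 and 116 scaled FPKM in RIP against 65.1, 99.6, 35.9 and 83.6 in input, in the same order of cultures. It was higher in 4 of 4 cultures, by 0.53 ± 0.10 (limma adjusted p = 0.00251). Snhg12 had 90.6, 94.4, 49.5 and 64.9 in RIP against 58.9, 67.9, 47.0 and 60.2 in input, and was higher in 4 of 4 by 0.32 ± 0.12 (limma adjusted p = 0.0463). On the higher side 37.3% of tested genes were called. The Snhg12 call was lost without the p53-/- Adriamycin culture (0.22, limma adjusted p = 0.127), without the untreated p53-/- culture (0.26, limma adjusted p = 0.165) and without the untreated p53+/+ culture (0.38, limma adjusted p = 0.0510), and its adjusted p over the alternatives ran from 0.00792 to 0.303. Without the block of culture Snhg5 was not called either (limma adjusted p = 0.336). With FPKM as deposited, where the median of all genes is -0.72, Snhg5 was at -0.39 and Snhg12 at -0.60, both below 0 but above that median, and 1540 genes were called higher and 7246 lower, against 4412 and 4470 after scaling. The record NR_002840 was higher in RIP by 0.78 ± 0.10 (limma adjusted p = 0.000388), and at -0.13 with FPKM as deposited. Levels in RIP are relative to the other RNAs of the same library, and without a control antibody recovery through hnRNP L cannot be told apart from recovery that does not depend on it. Annotated records took 41.1% to 65.2% of the mapped material in RIP, against 87.6% to 90.6% in input. The part of this in the RIP differences was not tested.

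**Figure D3:**
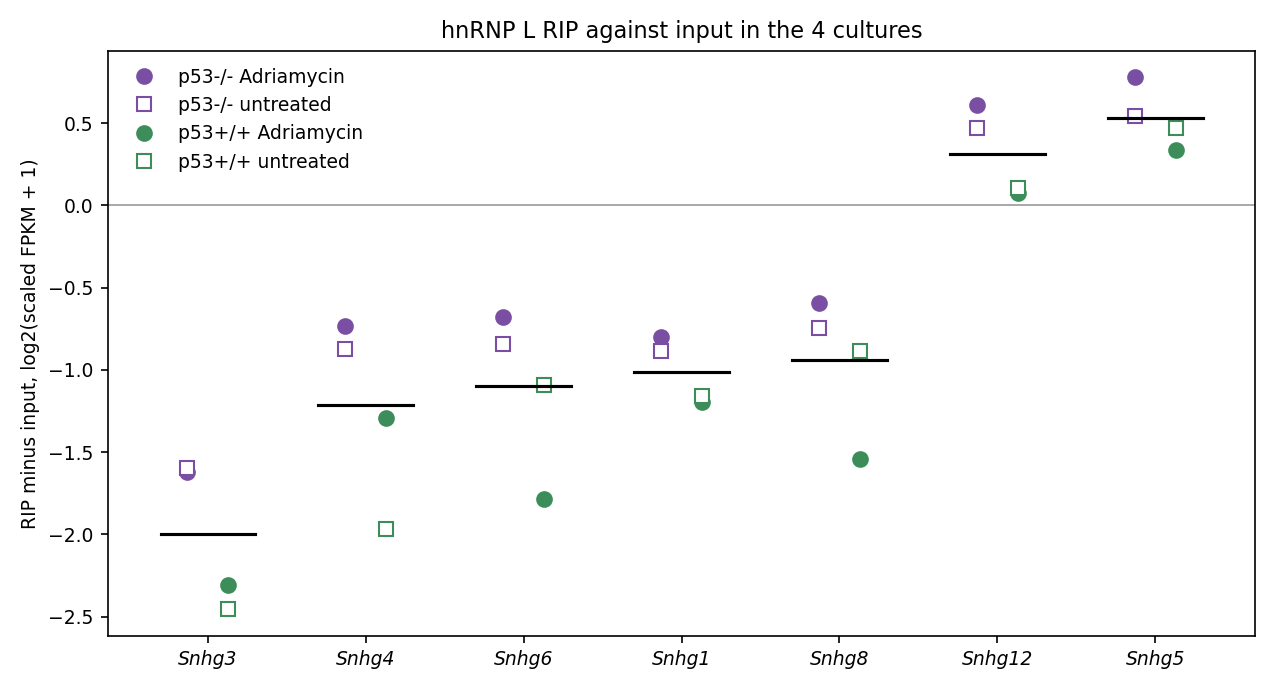
RIP minus input (vertical axis, log2(scaled FPKM + 1)) for each of the 7 host genes (horizontal axis) in the 4 cultures. Points are single cultures, purple for p53-/- and green for p53+/+, filled for Adriamycin and open for untreated, and bars are the means over the 4. Snhg3, Snhg4, Snhg6, Snhg1 and Snhg8 lie below 0 in all 4 cultures, Snhg12 and Snhg5 above 0 in all 4, and in each gene both purple points lie above both green ones.

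The RIP difference moved with record length over all genes. The classes were chosen after the data were seen. Genes whose record of highest mean FPKM had 400 to under 1200 bases, the class of all 7 members, had a median of -0.70 over 1567 genes, with 64.2% called lower and 16.8% called higher. The medians of the longer classes were -0.28 (from 1200 bases), 0.13 (from 2400 bases) and 0.55 (from 4800 bases). Snhg12, with 606 bases, and Snhg5, with 1010 bases, thus stood above the median of their class, and the 5 members that were lower stood below it. The part of length in these differences was not tested.

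**Figure D4:**
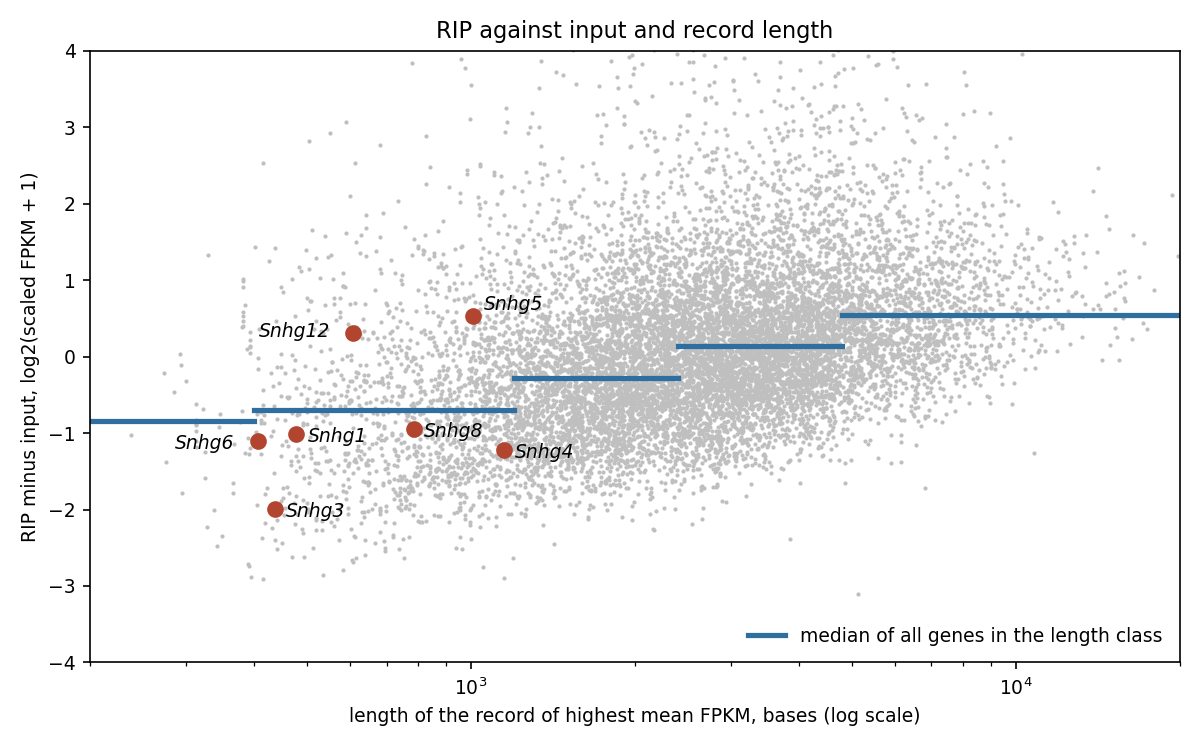
RIP minus input (vertical axis, mean of 4 cultures, log2(scaled FPKM + 1), drawn from -4 to 4) against the length of the record of highest mean FPKM of each gene (horizontal axis, bases, log scale, drawn from 200 to 20000). Grey points are 11699 tested genes, with 133 outside the axes, red points are the 7 host genes and blue lines the median of all genes in each length class. Snhg12 and Snhg5 lie above the blue line of their class at -0.70, the other 5 below it.

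The ratio of RIP to input was higher in p53-/- than in p53+/+ cultures for each of the 7, beside 43.7% of tested genes, but no member passed the test. The difference was 0.83 ± 0.23 for Snhg4 (SE, limma adjusted p = 0.116), 0.77 ± 0.15 for Snhg3 (limma adjusted p = 0.0516), 0.68 ± 0.24 for Snhg6 (limma adjusted p = 0.189) and 0.55 ± 0.23 for Snhg8 (limma adjusted p = 0.250). It was 0.45 ± 0.16 for Snhg12 (limma adjusted p = 0.178), 0.33 ± 0.16 for Snhg1 (limma adjusted p = 0.295) and 0.26 ± 0.17 for Snhg5 (limma adjusted p = 0.439). The test called 0 of the 7 on the higher side and 0.837% of tested genes, and 4 of the 7 (Snhg3, Snhg4, Snhg6 and Snhg12) had an unadjusted limma p below 0.05 with a higher ratio, beside 7.89% of tested genes. In all 7 the ratios of both p53-/- cultures lay above those of both p53+/+ cultures, as in 21.9% of tested genes. Snhg3 had ratios of -1.62 and -1.60 in Adriamycin-treated and untreated p53-/- cultures, against -2.30 and -2.45 in p53+/+ cultures. In the same order, the p53+/+ ratios lay further apart for Snhg4 (-1.29 and -1.97), Snhg6 (-1.79 and -1.09) and Snhg8 (-1.54 and -0.89). Snhg4 stood at only 1.59 scaled FPKM in treated p53+/+ RIP, where the added 1 weighs on its ratio. The Snhg4 difference between genotypes was 1.07 with a pseudocount of 0.1 FPKM (limma adjusted p = 0.0328). With a pseudocount of 5 FPKM it was 0.41 and not called. For Snhg8 the ratio of the untreated p53-/- culture was -0.74. The median of the 7 was 0.55, beside -0.05 over all tested genes. Calls came and went with the processing. With treatment as a term Snhg3 and Snhg4 passed (limma adjusted p = 0.0149 and 0.0238). Under that setting 1361 genes had an unadjusted limma p below 0.05 with a higher ratio, against 933 without the term. Leaving out a culture leaves 1 culture in a genotype, so only differences are given. Without the untreated p53+/+ culture they were 1.03 for Snhg6, 0.87 for Snhg8 and 0.49 for Snhg4. Without the Adriamycin-treated p53+/+ culture they were 0.33 for Snhg6, 0.22 for Snhg8 and 1.16 for Snhg4. This test has 2 cultures a side, and on simulated data over 11832 genes it recovered 1% of differences of 1 and 54% of differences of 2. The simulated spread was taken from these data and also holds the differences in ratio between the genotypes. These rates may therefore be too low and may not carry over. The treatments stand in for replicates here. The share of mapped material on annotated records also differed by genotype in RIP, with the values given above. The fibroblast marker sum was 3049 (Adriamycin) and 3464.5 (untreated) scaled FPKM in p53-/- RIP, against 409.7 and 442 in p53+/+ RIP. Bgn alone made up 2497 and 2784 of the p53-/- sums, and 169 and 46.5 of the p53+/+ sums. Of 15 fibroblast markers tested for the ratio, 1 was higher in p53-/- cultures and 5 were called lower, with a median of -0.50. The part of the share or of the fibroblast markers was not tested. NR_002840 did not show a clear difference, at 0.08 ± 0.19 (limma adjusted p = 0.860).

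Other hosts of snoRNAs were measured beside the 7. Of 14 other noncoding hosts listed, 11 were tested, and their median after Adriamycin was -0.26 in p53-/- input, with 11 of 11 below 0, and -0.67 in p53+/+ input, with 10 of 11 below 0. Snhg7 was the lowest in p53-/- input (-0.62). Dancr was the lowest in p53+/+ input (-1.27) and the 1 gene of the list past 1, at 7.71 scaled FPKM in treated and 20.1 in untreated cells, while Snhg15 was the highest (0.28). For RIP against input, 2 of the 11 were called higher and 5 lower, Rian being the highest (1.10) and Epb41l4aos the lowest (-0.98). The ratio of RIP to input was above 0 between p53-/- and p53+/+ for 11 of 11, and the test called Dancr (1.14, limma adjusted p = 0.0201) and Snhg20 (0.81, limma adjusted p = 0.0411). Snhg20 was also the gene of this list that was higher by 1 or more in untreated p53-/- than in p53+/+ input (1.34).

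Protein-coding hosts gave a lower median than the noncoding ones in p53+/+ input, and a higher one in p53+/+ RIP (-0.84, against -0.99 for the 7 and -0.89 for the other noncoding hosts). Of 10 tested, 1 was lower by 1 or more in treated p53-/- input, the translation factor gene Eif4a2 (-1.18), and the median was -0.26. In treated p53+/+ input 4 were lower by 1 or more, Nop56 (-1.35), Eif4a2 (-1.20), the nucleolin gene Ncl (-1.10) and the chaperone gene Hspa8 (-1.02), with a median of -0.92, while Eef1b2 was the highest (0.10). In RIP, Nop56 was the highest of this list (2.13 ± 0.10, limma adjusted p = 1.48e-05) and Eif4a1 the lowest (-1.10).

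Genes of the proteins that bind snoRNAs, or act on host RNAs, were read in the same comparisons. Of 7 tested core proteins of snoRNPs, 0 were lower by 1 or more after Adriamycin in p53-/- input (median -0.05) and 2 in p53+/+ input (median -0.59), Nop56 (-1.35) and Nop58 (-1.20), both of box C/D particles. Fbl, the methyltransferase of those particles, stood at -0.36. In RIP, 4 of the 7 were called lower, Nop10 (-2.55), Gar1 (-1.78), Fbl (-1.62) and Nhp2 (-1.33), and Nop56 was called higher. Of 10 assembly factors, Nolc1 (-1.19) was the 1 gene past 1 in p53+/+ input, where the median was -0.31, and 0 passed 1 in p53-/- input (median -0.13). Of 13 nonsense-mediated decay factors, 0 were lower by 1 or more in either genotype, with medians of -0.04 in p53-/- and -0.20 in p53+/+ input. Ribosome biogenesis genes had medians of -0.14 in p53-/- and -0.65 in p53+/+ input over 12 genes, of which Ubtf (-1.26), a factor of ribosomal RNA transcription, and Ncl passed 1 in p53+/+ input, and ribosomal protein genes -0.10 and -0.06 over 81 genes.

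The genes next to the hosts were also read. Slc3a2, an amino acid transporter subunit gene that lies 117 bases from Snhg1, differed after Adriamycin by -0.12 in p53-/- and -0.23 in p53+/+ input, against -0.54 and -0.55 for Snhg1. Matr3, a nuclear matrix protein gene 3841 bases from Snhg4, differed by -0.27 in p53-/- and -0.66 in p53+/+ input, against -1.15 and -1.88 for Snhg4. Trnau1ap, of selenocysteine incorporation, lies 738 bases from Snhg12 and differed by -0.07 and -0.59. Phactr4, which lies 2237 bases from Snhg3, differed by -0.08 and -0.49. In p53-/- input each of these 4 neighbours thus had a smaller difference than its host gene, and in p53+/+ input Trnau1ap had a larger one than Snhg12.

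The genes whose pattern was most like the mean of the 7 were found by Pearson correlation among 4937 other genes averaging at least 10 FPKM. Over the 8 libraries these were Dancr (r = 0.99), itself a snoRNA host, G3bp1, Sra1, Mycn and Elavl1 (r = 0.98 each). Over the 4 inputs alone they were Dph6, Dhx36, Nol10, Kat7 and L3mbtl2, with r of 0.998 or more. With so few libraries high values are common, and 269 genes reached 0.9 over 8 libraries and 696 over the 4 inputs. Among the members, Snhg4 followed the mean most closely over 8 libraries (r = 0.98), and Snhg12 (0.35) and Snhg5 (0.44) least. Each member is itself part of that mean, in which genes with larger differences weigh more. The r of a member is therefore partly built in. These are descriptions over libraries that share cultures and scaling.

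Records of the snoRNAs themselves were poorly measured in these libraries. 11 short records, of at most 250 bases, lay inside the 7 genes and NR_002840. Snord22 inside Snhg1 was the 1 record above 0.001 FPKM in all 8 libraries, with 46.6 to 193 scaled FPKM. Its bounds were wide, 4.91 to 88.2 in treated and 62.7 to 207 in untreated p53-/- input, and 24.5 to 143 in treated and 23.9 to 139 in untreated p53+/+ input. Snora74a inside Snhg4 stood at 0.862 in treated and 4.36 in untreated p53-/- input and at 1.02 in treated and 4.01 in untreated p53+/+ input, with overlapping bounds in both genotypes. Snord87, Snora24, Snord99, Mir1949 and the record NR_039577 were at 0.001 FPKM or less in all 8 libraries. Snord47 stood at 21883 scaled FPKM in RIP and 10624 in input of untreated p53+/+ cells, with a lower bound of 0 in both. It was at 0 in the other 6 libraries, and Snora61 stood at 12600 scaled FPKM in 1 library and 0 in 7. Snora16a (up to 25.5 scaled FPKM) and Snora44 (up to 43.5) had lower bounds of 0 in every library. Whether the mature snoRNAs followed their host RNAs could therefore not be read from these values.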

How the data were processed

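Libraries were made with TruSeq RNA kits, per the labels' protocols. The submitters' processing notes name Cufflinks, TopHat, TopHat2 2.0.8, CASAVA 1.8.2 and build mm9, with no settings. The authors deposited 1 table a library with 30769 RefSeq records, each with FPKM, bounds on FPKM, coverage, length and status, per the file headers. Coverage, as deposited, was used here only to estimate depth (coverage times length). Fragment counts were not used here, and the level of the bounds was not given.

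Accessions gave 98.2% of records a symbol (GRCm38.p6 gene table, names and neighbours only). FPKM was summed per gene. The scaling factor of a library was the median, over genes averaging at least 1 FPKM, of its ratio to the geometric mean of the libraries (0.532 to 1.45), and log2(value + 1) was taken. A difference on this scale understates changes near 1 FPKM. The 11832 genes averaging at least 1 FPKM as deposited were tested. RIP against input used limma 3.58.1 (R 4.3.3, trend, culture as a block, 3 residual degrees of freedom), and the ratio between genotypes used limma on 2 ratios a side (2 residual degrees of freedom), with Benjamini-Hochberg values adjusted over all tested genes and 0.05 as the threshold. On simulated data the RIP comparison recovered 83% of differences of 1 and 95% of differences of 2 over 11832 genes, with 3 false calls. Only 100 genes of each size were changed there. In the data 4412 genes were called higher and 4470 lower, so these rates may not carry over. Other comparisons have 1 library a side and count genes at 1 or more. P-values rest on the spread between these cultures, which limma draws toward that of genes of similar level. That spread may be technical, and it also holds differences between the conditions of the cultures.

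The genes, gene lists and tests were chosen with earlier results of these data known. All 7 host genes were named. From other lists the highest, the lowest and genes past 1 were named, with a few more genes whose roles are well known, such as Fbl, chosen after their values were seen. Neighbours lie within 5 kb, and likeness named the 5 genes of highest r. Alternatives changed the scaling, the pseudocount, the filter, the record used, failed estimates, the model and the cultures.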

Additional observations from a re-analysis of the deposited data

How the results depend on the processing

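The median of all genes in RIP against input was -0.72 with FPKM as deposited, -0.14 with quantile normalization, -0.11 with factors over genes of any level, 0.14 with factors over genes of 5 FPKM or more and 0.16 as a share of summed FPKM, and calls are relative to it. Over all genes, 4412 were higher and 4470 lower in RIP, against 1540 and 7246 with FPKM as deposited and 2690 and 2672 without the culture block. Of the members higher in RIP (2), 0 were called with FPKM as deposited or without the culture block, 1 with a pseudocount of 5 FPKM, without a filter or with factors over genes of any level, and 1 to 2 when 1 culture was left out. With FPKM as deposited Snhg5 (-0.39), Snhg12 (-0.60, called lower, limma adjusted p = 0.0423) and NR_002840 (-0.13) lay below 0.

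For the ratio of RIP to input between genotypes (0 members called), 7 were called with FPKM as deposited and 2 with a pseudocount of 0.1 FPKM or a treatment term. It was 1 as a share of summed FPKM, with a mean of 5 FPKM or more or with factors over such genes. Genes with an unadjusted limma p below 0.05 and a higher ratio numbered 933 in the main setting. They numbered 6314 with FPKM as deposited, 959 with a pseudocount of 0.1 FPKM and 1361 with a treatment term. As a share of summed FPKM they numbered 1284, with a mean of 5 FPKM or more 580, and with factors over such genes 917. Without the p53-/- Adriamycin culture NR_002840 was at -0.15, and at up to 0.30 without another culture. After Adriamycin, members lower by 1 or more came to 1 (quantile normalization, against 3) in p53+/+ input, to 0 (pseudocount of 5 FPKM, against 1) in p53-/- input and to 5 (quantile normalization, or factors over genes of any level, against 3) in p53+/+ RIP. In p53-/- RIP they came to 0 (against 1) with FPKM as deposited, as a share of summed FPKM, with a pseudocount of 5 FPKM and with factors over genes of 5 FPKM or more. Snhg4 no longer passed 1 between p53-/- and p53+/+ treated input with a pseudocount of 5 FPKM, leaving 0 members. The causes were not tested. The last 2 sets of factors were chosen after the data were seen. Of 272 values of single genes with a test, NR_002840 included, 240 kept direction and side of the threshold, 18 newly passed it, 10 no longer did and 4 changed sign. Of 539 without a test, 11 changed sign. Over all genes, the count lower by 1 or more after Adriamycin ran from 203 to 796 (against 469) in p53+/+ input and from 290 to 967 (against 637) in p53+/+ RIP, lowest with a pseudocount of 5 FPKM and highest with 0.1 FPKM. It ran from 10 to 31 (against 22) in p53-/- input and from 15 to 72 (against 32) in p53-/- RIP. Genes higher by 1 or more in p53-/- ran from 123 to 704 (against 381) in untreated and from 371 to 1425 (against 919) in treated input. For the dependence on genotype, genes higher by 1 or more ran from 116 to 675 (against 334). Genes that limma called with a higher ratio of RIP to input in p53-/- ran from 0 without a filter, where 1249 had an unadjusted p below 0.05, to 4622 with FPKM as deposited (against 99), and those called lower from 0 without a filter (1852 unadjusted) to 869 with a treatment term (against 285). RIP and input were paired by culture in the RIP comparison, and the labels carry no replicate numbers that would pair the treatments or genotypes. Depth in RIP, at 3.21 to 4.94 Gb, and 1 library a group limit the small differences.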
